A study of Sus scrofa with 14 samples.

Results

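The genes described here are the myogenic transcription factors MYOD1, MYOG, MYF5 and MYF6, together with ANKRD1. MYOD1 and ANKRD1 were picked for their measured rise in the osteoarthritis (OA) group of these arrays, so their difference between the groups is given as a description with no test. MYOG, MYF5 and MYF6 were added as the relatives of MYOD1. Probes were taken where the RefSeq accession in the scanner files was a transcript of a listed gene. By this rule 3 of the 5 genes had a probe, among 2389 genes that could be named on the array. They are MYOD1 (probe A_72_P185276), MYOG (A_72_P177666) and ANKRD1 (A_72_P232732 and A_72_P596044), which makes 4 probes. MYF5 and MYF6 had no probe by this rule and were not analysed here.

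RNA from the meniscus of male Wuzhishan pigs, aged 6 to 7 months per the labels, was measured on 14 single-colour arrays, each treated as 1 animal. The OA group held 7 arrays, from pigs whose anterior cruciate ligament had been operated on 24 weeks earlier. The sham group held 7 arrays, from pigs sampled the same number of weeks after a sham operation. OA here names the operated group as the labels do, and no histological score of the joints was used.

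The myogenic regulatory factors are basic helix-loop-helix proteins that bind E-box motifs as dimers with E proteins. MYF5 and MYOD1 commit precursor cells to the skeletal muscle fate, MYOG drives their terminal differentiation, and MYF6 acts mainly in later differentiation and in mature fibres. ANKRD1, also called CARP, is an ankyrin repeat protein that is abundant in heart muscle, binds titin at the sarcomere and enters the nucleus, and it is a known target of the transcription coactivators YAP and TAZ. The meniscus is fibrocartilage and is not a muscle.

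The arrays differed in brightness. The 75th percentile of the processed signal, in arbitrary units, averaged 274 ± 125 on OA arrays and 539 ± 82.6 on sham arrays (SD, n = 7 each), and it was lowest on OA 1 to 5, at 156 to 250. Between 67.9 and 89.3% of the probes read well above background on OA arrays, and 89.7 to 95.2% did on sham arrays. Arrays that share a scan time in the file headers are called a scan here. OA 1 was scan 3, OA 2 to 5 were scan 4 and OA 6 and 7 were scan 5, while sham 1 to 4 were scan 1 and sham 5 to 7 were scan 2. No scan and no scan day held both groups, so scan and group cannot be told apart in any value below.

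Levels are given as a percentage of the array's own 75th percentile of signal, or as log2 of that ratio, and differences are OA minus sham on the log2 scale. Across 38818 tested probes the median difference was -0.05. A gene was called where the adjusted p of limma's test over all tested probes was under 0.05, which gave 67 of 2258 named genes higher in OA (2.97%) and 6 lower (0.266%). MYOD1 and ANKRD1 lie among the higher calls because they were chosen on this contrast, and nothing is read from that. Levels of different probes are not set against each other.

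MYOD1, the muscle lineage-determining factor, was read at a low signal in both groups and stood at a larger share of the array's signal on the OA arrays. Its probe was at 5.95, 11.0, 6.04, 8.83, 6.52, 4.47 and 5.34% of the 75th percentile on OA arrays 1 to 7. On sham arrays 1 to 7 it was at 1.95, 1.80, 2.20, 1.81, 4.49, 2.60 and 3.07%. OA 2 was the highest array and sham 2 the lowest, and 6 of the 7 OA arrays lay above every sham array. The groups met at OA 6 and sham 5, whose log2 values were both -4.48. The mean log2 value was -3.92 ± 0.44 in OA and -5.36 ± 0.48 in sham (SD, n = 7 each). The difference was 1.44 ± 0.24 (SE), or 2.71-fold. MYOD1 was picked for this rise, so the SE is no test and the difference can be too large. Because the arrays read bulk tissue, fewer cells of a type and less RNA per cell cannot be told apart, here and for each gene below.

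The MYOD1 probe was dim. Its mean processed signal of 14.7 stood at percentile 15.0 of the tested probes, and it was well above background on 7 of 7 OA arrays and 7 of 7 sham arrays. The spot read 1.96 to 3.05 times its local background on OA arrays and 1.78 to 2.76 times on sham arrays. The signal was 5.62 to 8.45 times its own error estimate in OA and 5.25 to 8.28 times in sham. In the same signal decile of tested probes the median difference was -0.21. Probes well above background on 7 or more of 14 arrays were tested, so a probe can pass through the sham arrays alone. No direction is read from this median. CSRP3, GATA4 and NPPB, untested and well above background on no array, differed by 1.05, 1.05 and 1.37 after scaling. ATP2A1, untested and well above background on 6 sham arrays only, differed by -0.64. The part of the low signal in the MYOD1 value was not tested. Ranked among the probes of its own array, MYOD1 stood at 23.5 to 43.8% on OA arrays and at 9.06 to 25.4% on sham arrays.

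Before any scaling between arrays, the MYOD1 signals overlapped. They were 13.4, 22.4, 11.5, 13.8, 16.3, 18.1 and 26.3 on OA arrays 1 to 7. On sham arrays 1 to 7 they were 11.6, 7.53, 10.3, 11.0, 26.3, 16.2 and 14.6. The highest OA array (OA 7) and the highest sham array (sham 5) had the same signal to 3 digits. The unscaled difference was 0.37 ± 0.31 (SE) on the log2 scale, while the median difference of all tested probes without scaling was -1.12. Relative to the median probe, MYOD1 was 1.49 higher in OA. The scaling shifts all probes of an array alike, so this relative value is the same with and without it by construction. The same holds for each gene below, and nothing is read from it. Whether the lower brightness of the OA arrays shaped this value was not tested.

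**Figure D1:**
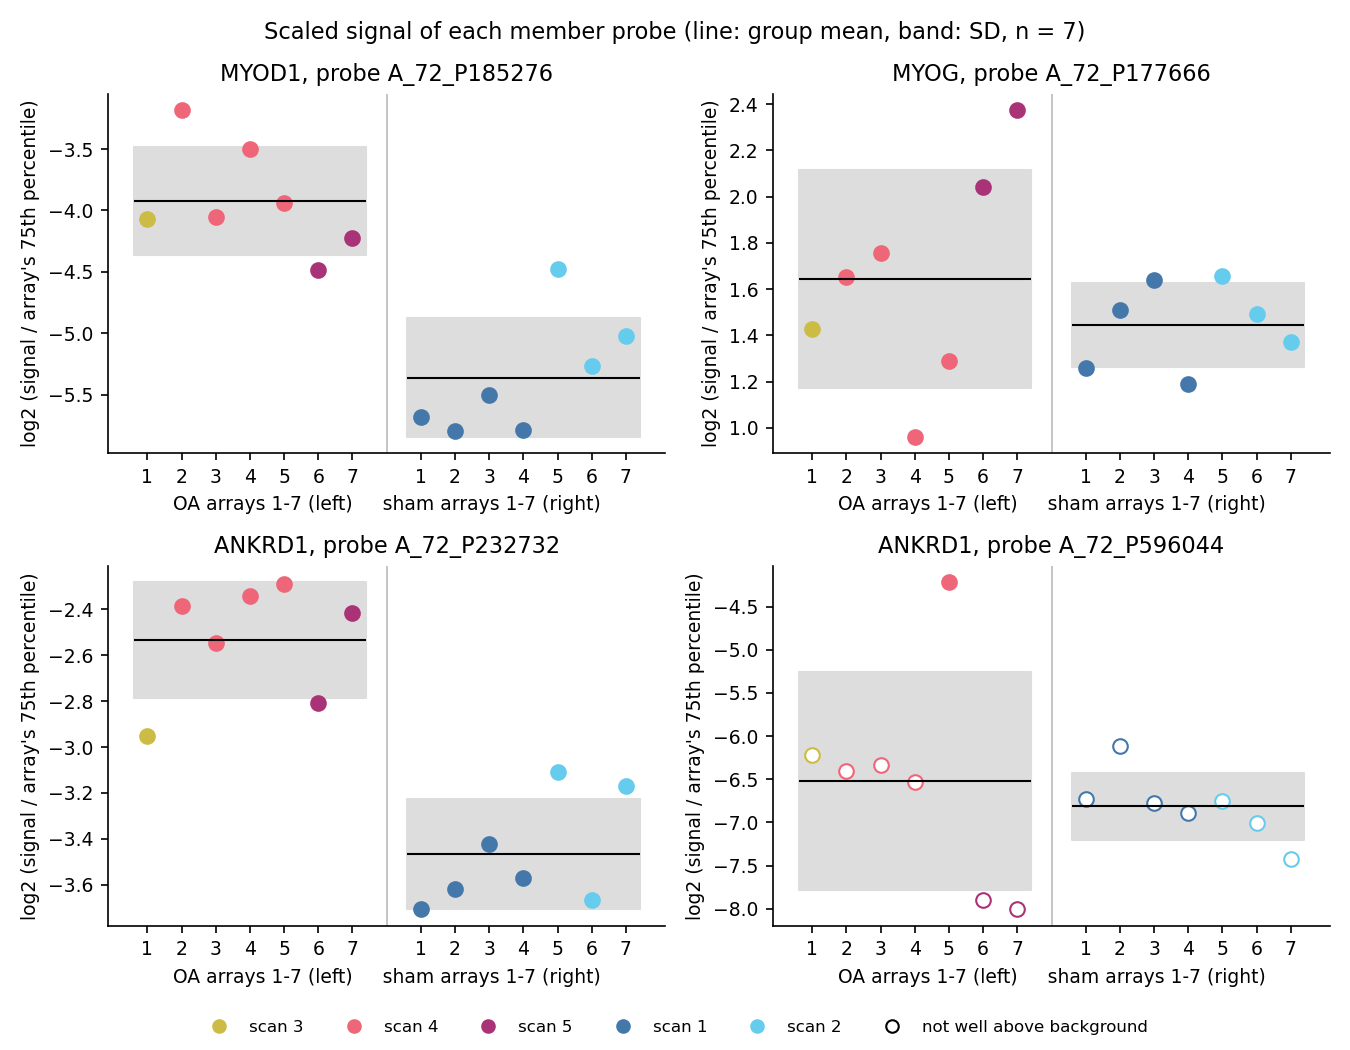
Log2 of signal over the array's 75th percentile for the 4 probes of MYOD1, MYOG and ANKRD1 on each array (1 panel a probe, OA arrays left of sham arrays, colours for scans, line for the group mean, band for the SD, n = 7, open circles for spots not well above background). For ANKRD1 (A_72_P232732) every OA array lies above every sham array, for MYOD1 6 of 7 do, for MYOG the groups overlap, and the other ANKRD1 probe is filled on OA 5 only.

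The MYOD1 level also varied between scans of the same group. Within OA, the log2 mean was -4.07 on the single array of scan 3, -3.67 on scan 4 and -4.35 on scan 5. Within sham, it was -4.92 on scan 2 and -5.69 on scan 1, a gap of 0.77 inside the sham group. All these OA scan means were above both sham scan means, in a gene picked for being higher in OA. With the scan as a random block the difference was 1.36 ± 0.28. It was 1.01 ± 0.34 when only OA 6 and 7, the brighter OA arrays, were set against all sham arrays. Each scan held 1 group, so neither value can separate scan from group, here or for ANKRD1 below.

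ANKRD1, the titin-binding ankyrin repeat protein, was read clearly by 1 of its 2 probes, and on that probe the groups did not overlap after scaling. Probe A_72_P232732 was at 12.9, 19.1, 17.1, 19.7, 20.4, 14.3 and 18.7% of the 75th percentile on OA arrays 1 to 7. On sham arrays 1 to 7 it was at 7.66, 8.15, 9.32, 8.42, 11.6, 7.87 and 11.1%. OA 1 was the lowest OA array and sham 5 the highest sham array. Among the 2258 named genes tested, 42 (1.86%) had every OA array above every sham array, and ANKRD1, chosen on this contrast, is one of them. Its mean log2 value was -2.53 ± 0.25 in OA and -3.47 ± 0.24 in sham (SD, n = 7 each). The difference was 0.93 ± 0.16 (SE), or 1.91-fold, and for a gene picked for its rise it can also be too large.

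The unscaled ANKRD1 signals of this probe gave no such separation. They were 29.2, 38.8, 32.6, 30.8, 51.1, 57.8 and 92.0 on OA arrays 1 to 7. On sham arrays 1 to 7 they were 45.7, 34.0, 43.7, 51.2, 67.9, 48.9 and 52.7. OA 7 was the highest of all 14 arrays and OA 1 the lowest, and the unscaled difference was -0.14 ± 0.31 (SE), the opposite sign to the scaled one. Against the median probe it was 0.98 higher in OA, by construction the same with and without scaling. Within its own array the probe ranked at 42.3 to 53.4% on OA arrays and at 32.7 to 43.4% on sham arrays, ranges that overlap slightly. The scan as a random block gave 0.88 ± 0.20, and leaving out the 4 arrays of scan 4 gave 0.74.

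The other ANKRD1 probe, A_72_P596044, was not well above background on 6 of 7 OA arrays and on all 7 sham arrays, and it gives no second reading of the gene. Its signal was 1.68 to 3.02 on those 6 OA arrays, against 2.77 to 6.02 on the sham arrays. The exception was OA 5, where it was well above background at a signal of 13.4. OA 5 was also the array with the highest scaled ANKRD1 value on the first probe, at 20.4%. Because it fell below the filter, this probe was not tested and no fold is given.

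**Figure D2:**
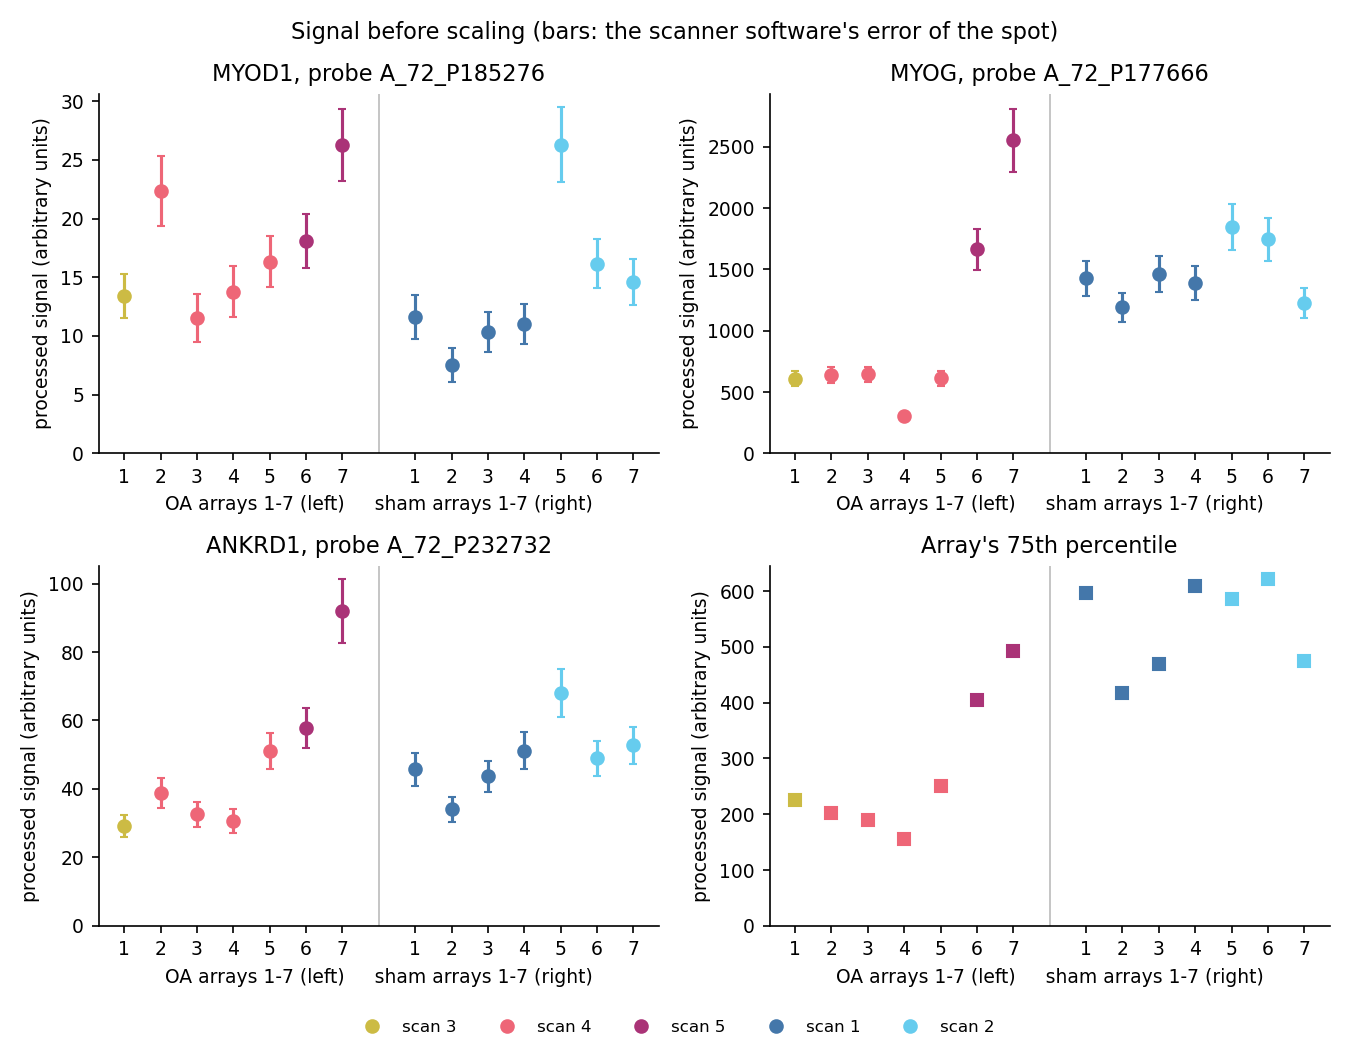
Processed signal in arbitrary units before scaling, on axes from 0, for the MYOD1, MYOG and ANKRD1 (A_72_P232732) probes and for the array's 75th percentile, with OA arrays left of sham arrays, colours for scans and bars for the scanner software's error of the spot. The 75th percentile spans 156 to 492 on OA arrays and 418 to 622 on sham arrays, and the MYOD1 and ANKRD1 signals of the groups overlap.

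MYOG, the factor that drives terminal muscle differentiation, was read at a high signal on every array and did not separate the groups. Its probe had a mean signal of 1073, at percentile 83.2 of the tested probes, and was well above background on 7 of 7 OA and 7 of 7 sham arrays. On OA arrays 1 to 7 it was at 269, 314, 338, 195, 245, 411 and 519% of the 75th percentile. On sham arrays 1 to 7 it was at 239, 285, 312, 228, 315, 281 and 259%. OA 7 and OA 6 were the highest arrays, OA 4 was the lowest, and the sham arrays lay close together between them. The mean log2 value was 1.64 ± 0.47 in OA and 1.45 ± 0.18 in sham (SD, n = 7 each), a difference of 0.20 ± 0.20 (SE) with a 95% interval of -0.23 to 0.63. That interval includes 0 and is wide, so the values do not show that MYOG was equal in the groups.

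The spread of MYOG within OA ran along the scans. OA 6 and 7, of scan 5, were 0.79 higher on the log2 scale than OA 2 to 5, of scan 4, and they were 0.76 above the sham mean. Without OA 6 and 7 the difference was -0.03. MYOD1 moved the other way between these scans, at 0.69 lower in scan 5 than in scan 4. Scan 5 also held the brightest OA arrays, and the part of brightness in the MYOG value was not tested. Unscaled, MYOG read 608, 637, 643, 303, 612, 1663 and 2552 on OA arrays 1 to 7, against 1189 to 1846 on sham arrays, and the unscaled difference was -0.87.

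Deviations of the members from their group means were compared over the 14 arrays. MYOD1 and ANKRD1 (A_72_P232732) deviated together with r = 0.69, at 0.55 over the OA arrays and 0.83 over the sham arrays. For MYOG and MYOD1 r was -0.21 over all arrays, but the sign differed by group, at -0.56 over the OA arrays and 0.53 over the sham arrays. For MYOG and ANKRD1 it was -0.04 over all arrays, -0.21 over OA and 0.44 over sham. Against array brightness (log2 of the 75th percentile), MYOG had r = 0.69 over all arrays, 0.84 over OA and -0.35 over sham. MYOD1 had r = -0.39 over all arrays, -0.71 over OA and 0.20 over sham, so for both genes the sign turned between the groups. ANKRD1 had r = -0.18 over all arrays, -0.20 over OA and -0.18 over sham. These are descriptions over 14 arrays, 7 a group, that share scans, scaling and brightness.

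By the same measure, over 1869 named genes well above background on all arrays, the genes most like MYOD1 were SYN1, a synaptic vesicle phosphoprotein (r = 0.84), MYH7, the slow skeletal and cardiac myosin heavy chain (0.81), C1QTNF3, a secreted C1q-like protein (0.79), and SLPI, a secreted protease inhibitor (0.78). The least like it were IVNS1ABP (-0.79) and IFN-DELTA-9 (-0.77). Most like ANKRD1 were C7, a terminal complement component (0.82), IDH3B, a subunit of mitochondrial isocitrate dehydrogenase (0.80), BCKDHB, of branched-chain amino acid breakdown (0.76), and PHYH, a peroxisomal enzyme (0.75). The least like it were PCBD1 (-0.77) and LOC100524494 (-0.75). The range from the 5th to the 95th percentile of r over these genes was -0.55 to 0.58 for MYOD1 and -0.50 to 0.45 for ANKRD1. MYH7, SYN1 and C7 were dim, with mean signals of 34.1, 40.9 and 39.6, as were MYOD1 and ANKRD1. The other genes most like them were brighter: C1QTNF3 at 8068, SLPI at 1123, IDH3B at 1059, BCKDHB at 748 and PHYH at 3801.

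**Figure D3:**
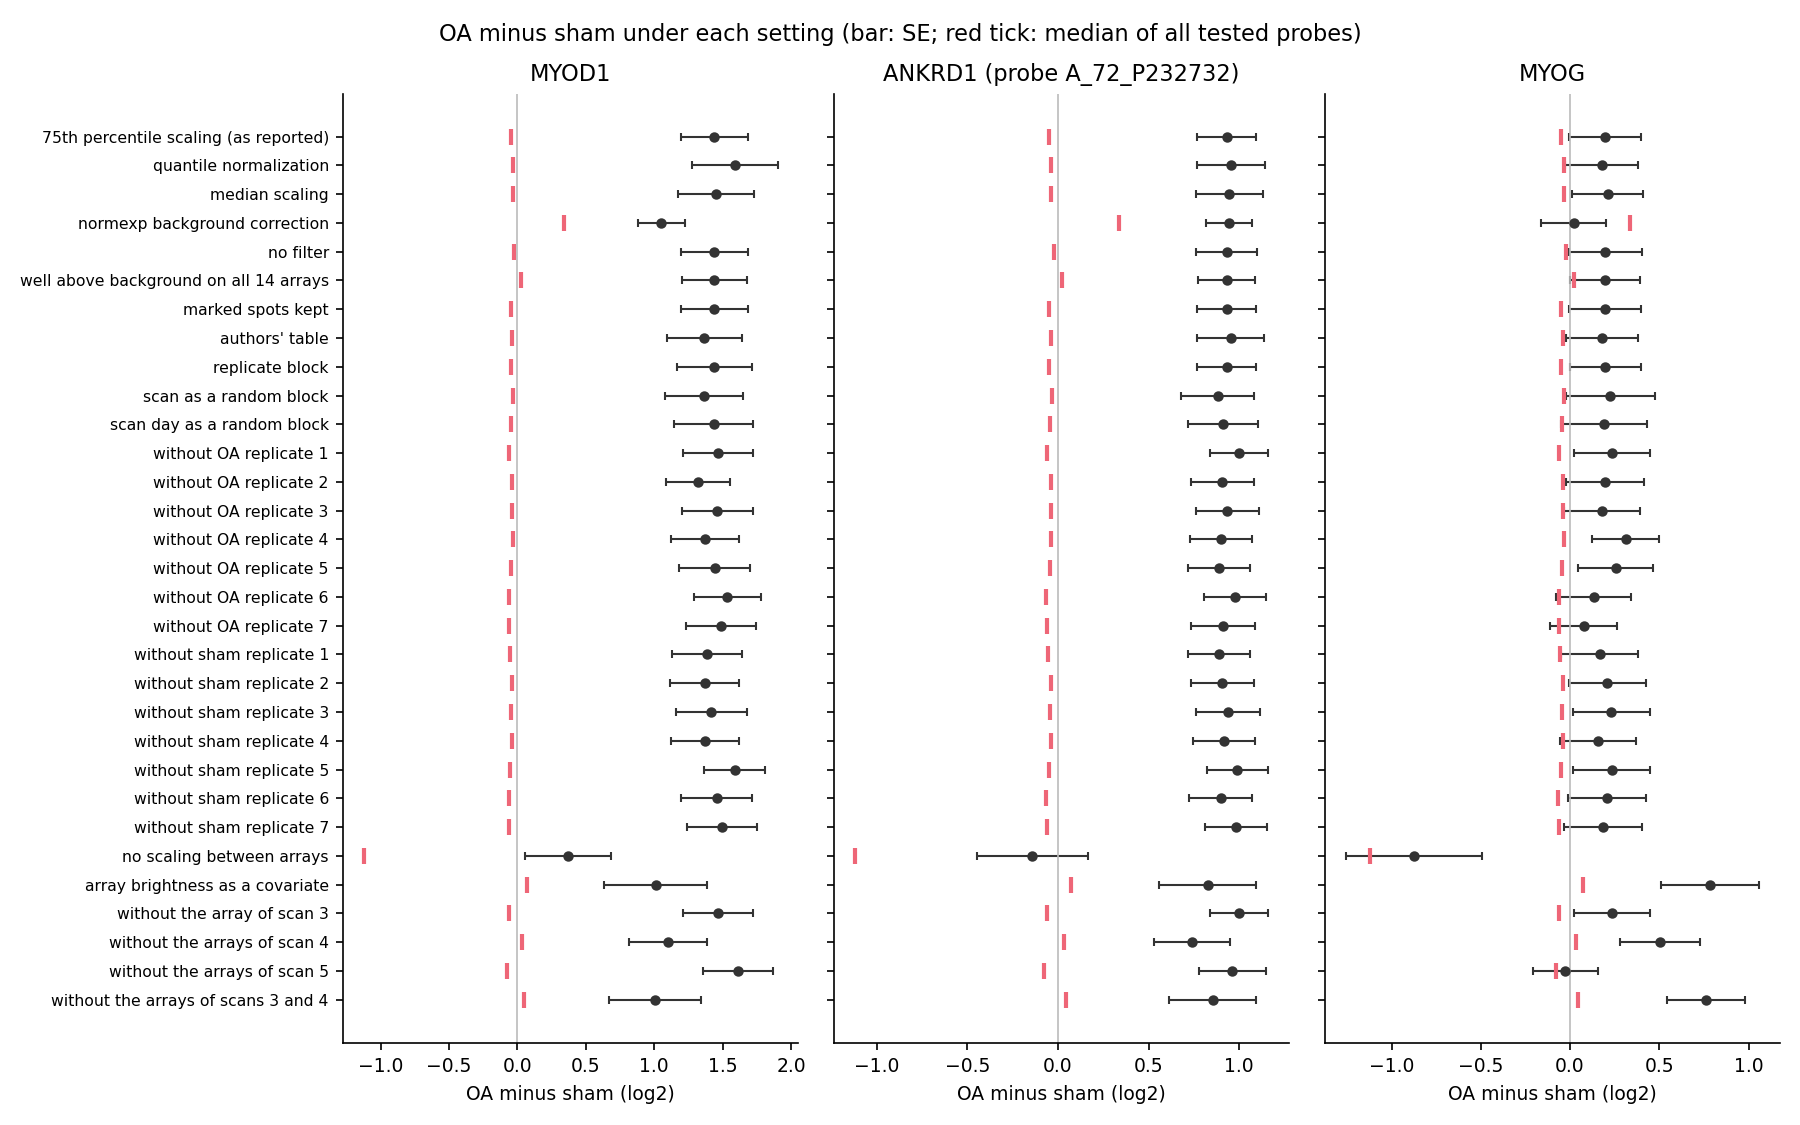
OA minus sham log2 difference for MYOD1, ANKRD1 (A_72_P232732) and MYOG, 1 panel each with its own axis range, under each way of scaling, filtering, blocking or leaving out arrays (point: difference, bar: SE, red tick: median of all tested probes). Without scaling the point lies at 0.37 for MYOD1, -0.14 for ANKRD1 and -0.87 for MYOG, with the red tick at -1.12, while under the other settings MYOD1 lies between 1.01 and 1.61.

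No measured partner or regulator of the MyoD family passed the test. Of 33 listed genes 9 had a probe and all 9 were measured. By limma 0 were called in either direction, beside 2.97% of all named genes higher and 0.266% lower. By the same test 0 had an unadjusted p under 0.05 (346 of all 2258 named genes did, 15.3%). The median difference was -0.05, against 0.00 over all named genes tested. The members with the smallest p were MET, the receptor that guides migrating muscle precursors (-0.69 ± 0.34, adjusted p = 0.28), and MEF2C, a MADS-box partner of the MyoD factors (0.46 ± 0.24, adjusted p = 0.30). IGF2, a growth factor of myogenesis, differed by -0.74 ± 0.40 (adjusted p = 0.32) and FST, the myostatin antagonist follistatin, by 0.45 ± 0.46 (adjusted p = 0.63). The 4 other tested IGF2 probes gave -0.49 to 0.62, 2 of them positive, so the probes disagree. For MEF2C the 2 other tested probes gave -0.11 and 0.00. MET was well above background on 5 of 7 OA arrays and 7 of 7 sham arrays. Its sign turned with normexp background correction, to 0.25, and it was at 0.00 without scan 4. No direction is read from MET.

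Among the genes that MyoD family factors switch on in differentiating muscle, 1 of 25 measured genes was called higher and 0 lower, with 3 at an unadjusted p under 0.05, beside 15.3% of all named genes. The list named 48 genes, of which 27 had a probe, and the median difference of the measured genes was -0.19. Among them TNNC1 was well above background on 2 of 7 OA and 7 of 7 sham arrays and TNNC2 on 0 of 7 OA and 7 of 7 sham arrays. They passed the filter through the sham group, so no direction is read from this median. The gene called was TNNI1, slow skeletal troponin I, at 8.35 to 17.8% of the 75th percentile on OA arrays (median 11.0%) and 5.88 to 10.3% on sham arrays (median 6.57%). Every OA array was above the sham mean, yet the ranges overlapped, and the difference was 0.71 ± 0.18 (adjusted p = 0.041). The call passed in 3 of 14 fits that left out 1 array, those without OA 1, OA 7 or sham 3, and was lost when any other array was left out. With the scan as a random block the adjusted p was 0.21. Without scaling the TNNI1 difference was -0.36 and the median of all tested probes -1.12. Relative to that median TNNI1 was at 0.76, by construction the same as with scaling.

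MYH7, in the same list, had a difference of 0.97 ± 0.29 and did not pass (adjusted p = 0.075). Its 6 other tested probes gave -0.22 to 0.73, with 4 of them positive, so the probes disagree. MYH1, a fast myosin heavy chain, differed by 0.39 ± 0.18 (adjusted p = 0.25). Its 5 other tested probes gave -0.74 to 0.55, with 2 of them positive, so these probes also disagree. SGCA, the sarcolemmal alpha-sarcoglycan, differed by -0.46 ± 0.26 (adjusted p = 0.33). With normexp background correction it was at 0.34, so no direction is read from SGCA.

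The genes around ANKRD1 in the sarcomere and in cardiac stress gave no call. Of 22 listed genes 10 had a probe and 7 were measured. By limma 0 were called higher and 0 lower, beside 2.97% and 0.266% of all named genes. At an unadjusted p under 0.05 by limma were 0, beside 15.3% of all named genes. The median difference was -0.10. NPPC, a natriuretic peptide that promotes growth of cartilage, differed by 0.37 ± 0.19 (adjusted p = 0.30). HAND1, a cardiac transcription factor, differed by 0.38 ± 0.22 (adjusted p = 0.36), and PLN, the calcium pump inhibitor phospholamban, by -0.43 ± 0.33 (adjusted p = 0.51). NPPA, the atrial natriuretic peptide, was well above background on 2 of 7 OA arrays and 7 of 7 sham arrays, at 1.08 to 13.1% of the 75th percentile in OA and 2.64 to 9.44% in sham. It passed the filter through the sham group and its sign turned with normexp background correction, so no difference is given.

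Among Hippo pathway genes and targets of YAP and TAZ, 1 of 11 measured genes was called higher and 0 lower, out of 31 listed. By limma 1 had an unadjusted p under 0.05, beside 15.3% of all named genes, and the median difference was 0.03. The gene called was VGLL3, a cofactor of the TEAD transcription factors, at 21.2 to 36.6% of the 75th percentile on OA arrays (median 25.2%) and 13.5 to 19.7% on sham arrays (median 17.9%). Every OA array was above every sham array, as for 42 of the 2258 named genes tested (1.86%). The VGLL3 difference was 0.67 ± 0.17 (adjusted p = 0.036). VGLL3 passed in 4 of 14 fits that left out 1 array, those without OA 1, OA 6, OA 7 or sham 4. Its call was lost when any other array was left out. With the scan as a random block the adjusted p was 0.25. Without scaling the VGLL3 difference was -0.40. Relative to the unscaled median of all tested probes VGLL3 was at 0.72, by construction the same as with scaling.

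Other targets of the same pathway did not pass. CTGF, a canonical target of YAP and TAZ, differed by 0.08 ± 0.23. AXL, a receptor tyrosine kinase, differed by 0.22 ± 0.19 (adjusted p = 0.54), and BIRC5, which encodes survivin, by 0.41 ± 0.31 (adjusted p = 0.49). The 3 other tested AXL probes gave -0.30 to -0.12, the opposite sign. TEAD4, a DNA-binding partner of YAP, differed by -0.18 ± 0.17 (adjusted p = 0.60), and by 0.08 with normexp. TNNI1 and VGLL3 are single calls in lists of 25 and 11 measured genes, beside 2.97% of all named genes called higher.

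**Figure D4:**
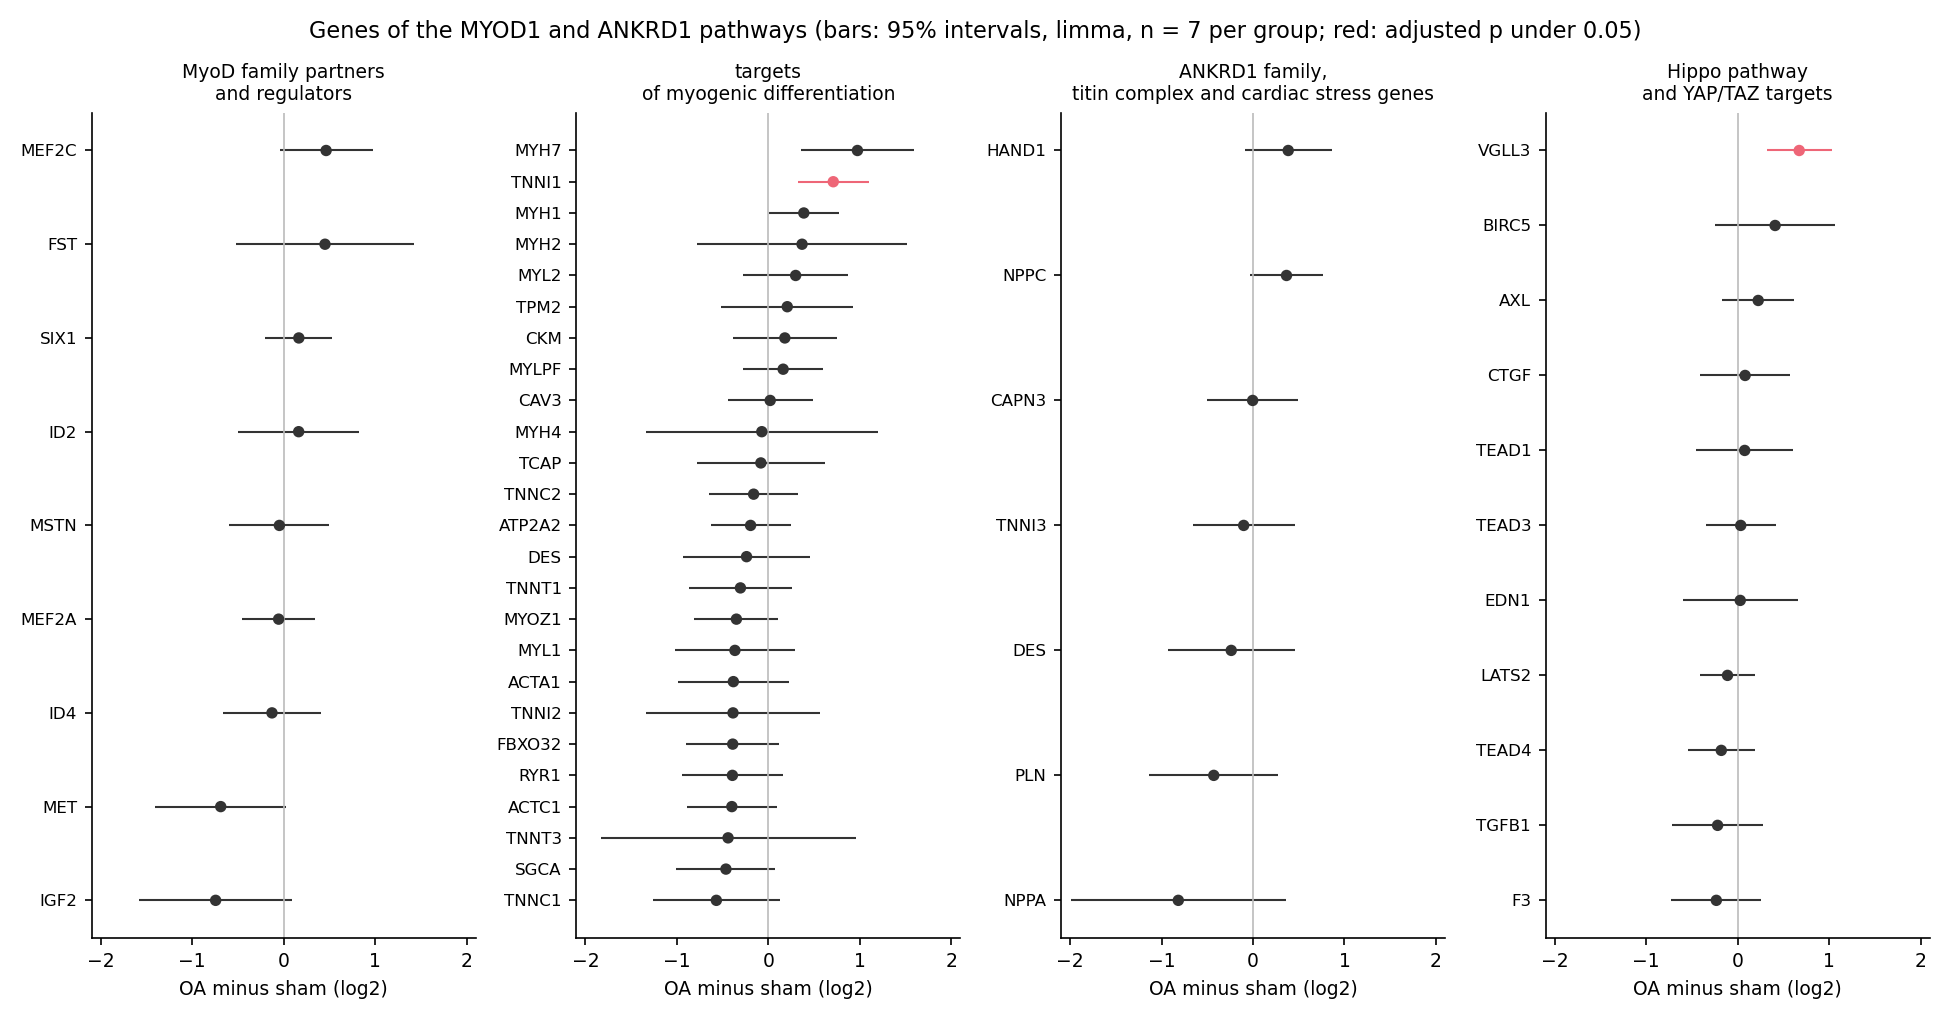
OA minus sham log2 difference of every measured gene in the 4 lists around MYOD1 and ANKRD1, 1 panel a list, with 95% intervals from limma (n = 7 per group). TNNI1 at 0.71 and VGLL3 at 0.67, in red, are the only genes of these lists past the threshold, and MYH7 at 0.97 is not; TNNC1, TNNC2 and NPPA were well above background on at most 2 of 7 OA arrays.

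Markers of the cell types that a meniscus sample can hold were read beside these results. Of 38 measured markers 2 were called higher, TNNI1 from skeletal muscle and LEP from adipocytes, beside 2.97% of all named genes. LEP, which encodes leptin, differed by 0.74 ± 0.16 (adjusted p = 0.021) and passed in 14 of 14 fits that left out 1 array. But its other tested probe, with a mean signal of 43.4 against 1011 for the called probe, gave -0.34. Without scaling the called LEP probe was also at -0.34. Relative to the median of all tested probes it was at 0.79, by construction the same as with scaling. With the scan as a random block the adjusted p of LEP was 0.17. The fibrochondrocyte markers with the highest signal were bright in both groups: DCN, which encodes decorin, differed by 0.01 ± 0.21, and ACAN, which encodes aggrecan, by 0.24 ± 0.37. Of the 5 measured, 3 had a positive and 2 a negative difference, the lowest being SOX9, the chondrocyte transcription factor, at -0.43 ± 0.46, and 0 passed. Other tested probes gave -0.41 to 0.24 for DCN and -0.32 to 0.20 for ACAN.

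Of the 16 measured skeletal muscle markers, 12 were well above background on all 14 arrays, while TNNC2 was on 0 of 7 OA arrays. Outside ACTA1 and DES, the mean signals ran from 6.10 (TNNC2) to 167 (CKM). Whether the samples held skeletal muscle was not tested. The 16 measured muscle markers summed to 1156 to 2379% of the 75th percentile on OA arrays and 1364 to 4223% on sham arrays, but most of that sum is the ACTA1 probe, at 697 to 1927% in OA and 963 to 3621% in sham. Of the 16, 1 was called higher and 0 lower, beside 2.97% and 0.266% of all named genes. The median difference, which includes TNNC1 and TNNC2, was -0.20. The brightest were ACTA1, skeletal muscle alpha-actin (-0.38 ± 0.29), and DES, the intermediate filament protein desmin (-0.24 ± 0.33). Other tested DES probes gave -0.21 and 0.20. The 15 other tested ACTA1 probes had mean signals from 8.01 to 4123, against 5375 for the probe used, and no level of the gene is read from these signals. Their differences were -1.12 to 0.86, with 2 positive. The summed ranges overlapped, and as sums over different probes they give no amount of muscle RNA. Satellite cells, the stem cells of muscle, were read by 2 of 7 listed markers: CALCR differed by -0.01 ± 0.22 and VCAM1 by 0.40 ± 0.33. With normexp CALCR was at 0.61. PAX7, the defining satellite cell factor, had no probe by the naming rule and was not analysed here.

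The other marker lists gave no call apart from LEP. Smooth muscle and pericyte markers (4 measured) included ACTA2 at -0.31 ± 0.24 and RGS5 at 0.05 ± 0.46. Endothelial markers (2 measured) were PECAM1 at -0.89 ± 0.42 and CDH5 at 0.49 ± 0.31, with the other tested CDH5 probe at -0.42. Macrophage markers (3 measured) were CD163 at 0.36 ± 0.40, LYZ at 0.89 ± 0.68 and CD14 at -0.45 ± 0.24, with CD14 below the sham mean on 7 of 7 OA arrays. Of the adipocyte list 6 were measured, 4 with a positive difference, such as FABP4 at 0.74 ± 0.63, and 2 with a negative one, CIDEC at -0.34 ± 0.47 and ADIPOQ at -0.18 ± 0.27. The other tested ADIPOQ probe gave 0.30. The part of cell composition in the MYOD1 and ANKRD1 values was not tested.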

How the data were processed

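The members and gene lists were chosen with earlier results of these data known. Spot intensity values come from the deposited scanner files and were made, per the file headers, with Agilent Feature Extraction 11.0.1.1 (background subtracted, not normalized between arrays). The authors' series table holds log2 values that followed the scanner signal (Spearman rho 0.994 to 1.00 across probes), ran in its direction and shared a median of 5.99; its making is not stated, and it served as an alternative.

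For each array, the 75th percentile of its 43603 non-control probes was subtracted from the processed signal on the log2 scale. The 82 spots marked as outliers were set missing, 0 were saturated, and the 38818 probes read well above background on 7 or more of 14 arrays were tested. OA minus sham was fitted with limma 3.58.1 in R 4.3.3 (lmFit, eBayes, two-sided, Benjamini-Hochberg over all tested probes) and checked on simulated data. Signals are geometric means over arrays where a mean signal is given. Genes were named by matching RefSeq accessions to the Sscrofa11.1 gene table (5461 of 5779 matched), and the probe with the highest mean signal stood for a gene. No source used here gives the array's genome build, so no coordinates are printed, and no sequences were used. Each array was treated as 1 animal; the highest correlation between 2 arrays was 0.989, and the number of arrays limits the precision.

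Genes named are all members and, of each list, those past the threshold or otherwise the 4 with the smallest p. Also named are the 2 brightest markers of each type, and the 4 most and 2 least alike to MYOD1 and ANKRD1. CTGF, PAX7, TNNC1, TNNC2, SOX9, CD14, CIDEC, ADIPOQ, CSRP3, GATA4, NPPB and ATP2A1 were added later, with results seen. Alternatives were quantile and median scaling, normexp on the median and background signals with an offset of 50, other filters, marked spots kept, the authors' table, all probes of a gene averaged, replicate number, scan and scan day as blocks, and each array left out. Chosen after seeing the data were no scaling, array brightness as a covariate, and leaving out scans.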

Additional observations from a re-analysis of the deposited data

Results flagged for a closer look

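A sample stood far from the rest of its group, by Dixon's 95% criterion, in 3 of 68 groups of 7 arrays checked (34 probes in 2 groups); chance gives about 1 in 20 groups. TNNI1, the only gene called among the targets of myogenic differentiation, was highest in its group on sham 3, at -3.27 on the log2 scale against -3.79 for the next sham array. PLN was lowest on sham 2, at -1.52 against -0.30 for the next. ACAN was lowest on OA 7, at 5.86 against 7.45 for the next OA array. No MYOD1, MYOG or ANKRD1 array was marked in this way.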

How the results depend on the processing

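Without scaling, the differences were 0.37 for MYOD1, -0.87 for MYOG and -0.14 for ANKRD1; this setting shifts every probe alike, so relative to the median probe MYOD1 was 1.49 and ANKRD1 0.98 higher either way. Under the other settings MYOD1 ranged from 1.01 to 1.61 and ANKRD1 from 0.74 to 1.00; MYOG reached 0.78 with array brightness as a covariate and 0.76 without scans 3 and 4. Leaving out each array gave 1.32 to 1.59 for MYOD1, 0.08 to 0.31 for MYOG and 0.89 to 1.00 for ANKRD1. The median of all tested probes moved to -1.12 without scaling and to 0.34 with normexp. Relative to that normexp median, MYOD1 was 0.71 higher in OA and ANKRD1 0.61 higher, against 1.49 and 0.98 in the main fit. MYOG was 0.32 below it (-0.32), against 0.25 in the main fit. The causes of the other shifts were not tested.

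Probe calls were 1120 higher and 329 lower. Higher calls were 2076 with no filter. Lower calls were 674 with quantile normalization, 784 with median scaling, 747 in the authors' table, 69 with probes well above background on all arrays, 1403 without scan 3 and 1374 without scan 5. Normexp gave 17612 higher and 771 lower, no scaling 9 and 31461, array brightness as a covariate 3 and 1, scan as a random block 18 and 0, and scan day 143 and 5. There were 233 and 3 without scan 4, and 156 and 39 without scans 3 and 4. Leaving out each array gave 598 to 1307 higher and 87 to 1403 lower.

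Of MyoD partners, normexp called 1 higher and no scaling 7 lower. Of myogenic targets, normexp called 11 higher and 1 lower, no scaling 0 higher and 20 lower, and leaving out scan 5 gave 2 higher. Of the ANKRD1 family, normexp called 4 higher, no filter 2 higher (NPPB and GATA4, not well above background on any array) and no scaling 5 lower. Of Hippo genes, normexp called 2 higher and no scaling 0 higher and 9 lower. Myogenic targets and Hippo genes each had 0 higher with the replicate block, either scan block, brightness as a covariate, without scan 4, and without scans 3 and 4, and 0 to 1 when each array was left out.

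The labels give no pairing of the arrays. Same-numbered OA and sham arrays had correlations of -0.19 to 0.27 in their deviations, and 1 of 14 arrays correlated best with its own number. These values show no sign of a pairing by replicate number but cannot exclude one. The replicate block left 295 probes higher and 40 lower.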
